A study of Drosophila melanogaster with 3 samples.

Results

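Sites bound by the MCM2-7 complex were described along the right arm of chromosome 3 (3R) of Drosophila melanogaster S2-DRSC cells, from 2 Mb to the last peak of the arm. The sites were those rows of the series peak list that lie on 3R and whose centre is above position 2000000, so they were chosen by position and not by any measured value. This gave 1283 of the 5726 sites of the series list, or 22.4%. The same span held 2062 of the 9668 peaks of replicate 1 and 1753 of the 8447 peaks of replicate 2. It ran from 2000001 to 27894329 on FlyBase release 5.1, a length of 25.9 Mb, where the upper end is the last peak end on the arm over all lists. The other 95 sites of 3R lie in the 2 Mb nearest the centromere. The sites on either side of the boundary were MCM_3315 outside (1996523 to 1996757, score 5.39) and MCM_3316 inside (2035959 to 2036038, score 3.001).

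S2-DRSC is a male Drosophila cell line derived from late embryos, grown here as asynchronous cultures, so that each sample averages over the cell cycle. Chromatin immunoprecipitation with sequencing was done on extractions 1 and 2, whose peak lists are called replicate 1 and replicate 2. The input DNA of extraction 3 was not analysed here. The labels name no treatment or mutation for any sample. Both immunoprecipitations used an unpurified mouse monoclonal antibody that was raised against yeast MCM complex, recognises the Walker B motif and is described as working in other species. The labels do not tie the extractions to different cultures, and the replicate spread may be technical. The series list holds the positions found in both replicates: each of the 1283 sites overlapped peaks of both, which together covered all of its bases. With 1 group of 2 samples no test across samples exists, and neighbouring sites are not independent replicates, so values are given for both replicate lists in place of a test.

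MCM2-7 is the ring-shaped helicase that unwinds DNA ahead of the replication fork. Before S phase, the origin recognition complex and its partners load MCM2-7 onto DNA as inactive double rings, a step called licensing, and only some of the loaded rings are later activated as origins. In flies and other animals licensed sites have no strict sequence motif, and MCM complexes can be moved along DNA or removed as replication passes. A peak in an asynchronous culture is therefore a place where MCM was bound in some of the cells, and not by itself an active origin.

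MCM sites were spread over the whole span at 49.5 sites per Mb, and together they covered 352419 bp, or 1.36% of it. Replicate 1 had 79.6 peaks per Mb and replicate 2 had 67.7, a mean of 73.7 ± 8.44 (SD, n = 2). Read counts were not used, so the depth behind either list is unknown and the difference in peak number cannot be set against it. In each of the 25 whole 1 Mb windows, from 2 to 27 Mb, the series list had between 35 and 76 sites, with a median of 47. No part of the arm at this scale was free of sites. The fullest 1 Mb windows were 25 to 26 Mb with 76 sites (94 in replicate 1 and 121 in replicate 2) and 12 to 13 Mb with 74 (104 and 88). The emptiest were 6 to 7 Mb (60 and 48 replicate peaks) and 18 to 19 Mb (59 and 47), with 35 sites each. Replicate 1 had its highest count, 106, at 5 to 6 Mb, where replicate 2 had 70, so the order of the windows was not the same in both lists.

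From the centromere side to the telomere side, the number of sites changed little. In 3 equal segments of 8.63 Mb, the series list held 407, 459 and 417 sites, or 47.2, 53.2 and 48.3 per Mb. The telomere-side segment had 1.02 times the site density of the centromere-side segment, and the replicate 1 and replicate 2 lists gave 0.917 and 1.12 times. The direction thus differed between replicates. The middle segment was the densest in all 3 lists, at 84.3 peaks per Mb in replicate 1 and 75.9 in replicate 2. Median widths were 200, 207 and 213 bp and median scores 3.87, 3.72 and 3.85 along these segments.

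**Figure D1:**
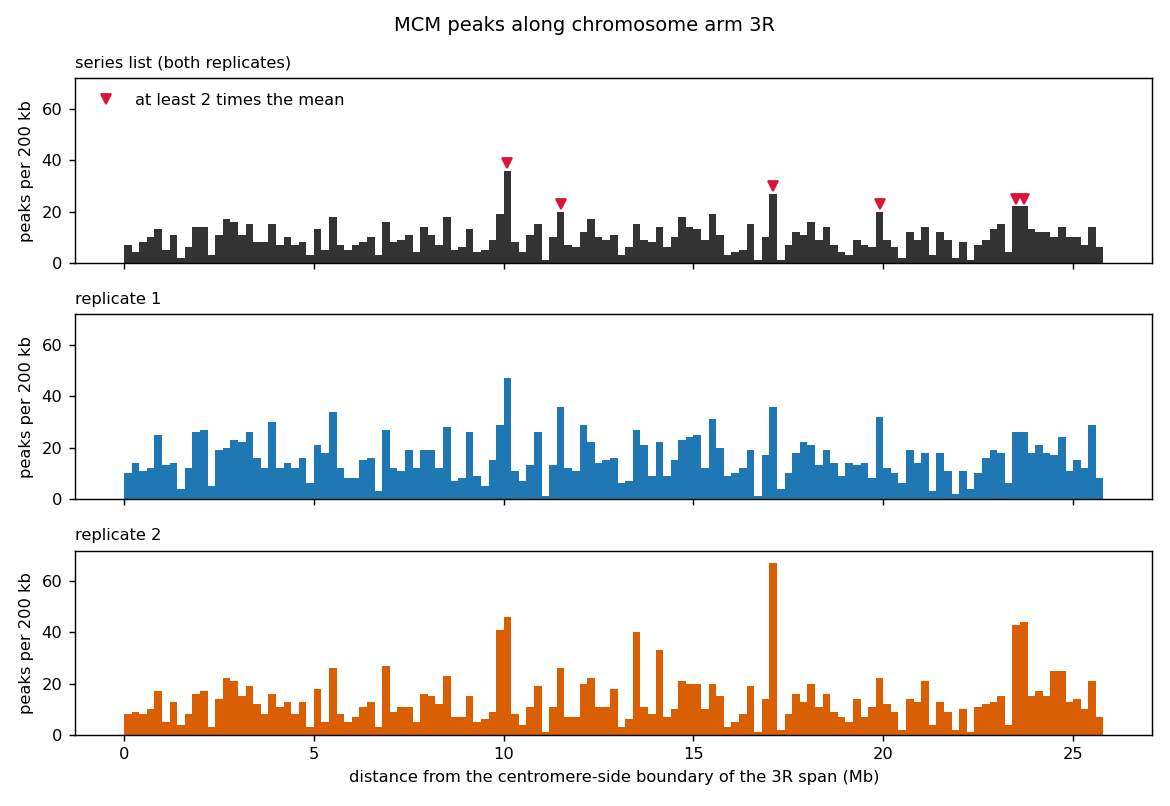
Peaks per 200 kb window along the 3R span (y axis, by peak centre) against distance from the 2 Mb boundary (x axis, Mb), for the series list and each replicate; triangles mark the 6 windows with at least 2 times the mean count of the series list. The highest bar is 36 sites in the series list, 47 peaks in replicate 1 and 67 peaks in replicate 2, and the last of these is in a different window from the other two.

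At a finer scale the sites were uneven. Among 129 whole windows of 200 kb the series list had a median of 9 sites and a range of 1 to 36, and the variance of the counts was 3.10 times their mean, where sites placed independently and at random would give a value near 1. The same ratio was 4.25 in replicate 1 and 7.29 in replicate 2, a mean of 5.77 ± 2.15 (SD, n = 2). No window was empty in any of the lists. The lowest count was 1 site, at 13 to 13.2, 18.6 to 18.8, 19.2 to 19.4 and 24.2 to 24.4 Mb. Counts of neighbouring windows were unrelated, with Pearson's r of -0.0004 for sites over 128 neighbouring pairs, and of -0.05 and 0.03 for the peaks of replicates 1 and 2, given as a description.

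Dense zones were defined as 200 kb windows with at least 2 times the mean of 9.91 sites. There were 6 such windows, and since 2 adjoined they formed 5 zones, at 12 to 12.2, 13.4 to 13.6, 19 to 19.2, 21.8 to 22 and 25.4 to 25.8 Mb. None of these lay in the 8.63 Mb nearest the boundary. By the mean of its own list, replicate 1 had 5 dense windows, among them 7.4 to 7.6 Mb in that segment, with 34 peaks and 18 series sites, and the windows at 25.4 to 25.8 Mb were not dense in it. Replicate 2 had 7, and the windows dense in all 3 lists were 12 to 12.2 and 19 to 19.2 Mb. The 6 windows make up 4.65% of the windows and held 147 sites, or 11.5% of all sites on the span.

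The zone at 12 to 12.2 Mb was the densest single window, with 36 sites, 47 replicate 1 peaks and 46 replicate 2 peaks. Both replicates placed it high, in the first rank of windows in replicate 1 and the second in replicate 2. Its sites covered 7.37% of the sequence, against 1.16% over all windows outside the dense zones, and 20 of them lay in the 50 kb from 12028640 to 12078639. The window before it, at 11.8 to 12 Mb, had 19 sites and the window after it 8. The median score was 3.71, and 17 of the 36 sites scored above the span's median of 3.79.

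The zone at 19 to 19.2 Mb had 27 sites, 36 replicate 1 peaks and 67 replicate 2 peaks. This was the window in which the replicates differed most, by 31 peaks. The sites were not spread over it: 18 of them lay in the 50 kb from 19140155 to 19190154, where replicate 1 had 24 peaks and replicate 2 had 46. Most replicate 2 peaks of the zone, 39 of 67, had no replicate 1 partner, against 422 of 1753 over the span. Those 39 had a median width of 55 bp and a median score of 2.15. The zone ended sharply. The next window, 19.2 to 19.4 Mb, held 1 site, and the stretch from 19200788 to 19427251 was free of series sites.

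The zone at 25.4 to 25.8 Mb was made of adjoining windows with 22 sites each. Replicate 1 had 26 peaks in each of them, while replicate 2 had 43 and 44. Of the 87 replicate 2 peaks, 39 had no partner, against 422 of 1753 over the span. Scores in it were low: the median was 2.64, and 6 of the 44 sites scored above the span's median. The lowest-scoring site of the span, MCM_4459 (25587530 to 25587628, score 1.48), lay in it. It also held 5 of the 24 sites of at least 1 kb.

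The zones at 13.4 to 13.6 and 21.8 to 22 Mb had 20 sites each. In these, replicate 1 had the larger number of peaks, with 36 against 26 in the first and 32 against 22 in the second. Of the replicate 2 peaks, 80.8% (exact 95% binomial interval 60.6 to 93.4) and 95.5% (77.2 to 99.9) had a replicate 1 partner, against 75.9% over the span. Of the replicate 1 peaks, 58.3% (40.8 to 74.5) and 65.6% (46.8 to 81.4) had a replicate 2 partner, against 62.9%. The replicate with more peaks thus differed among the dense zones.

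**Figure D2:**
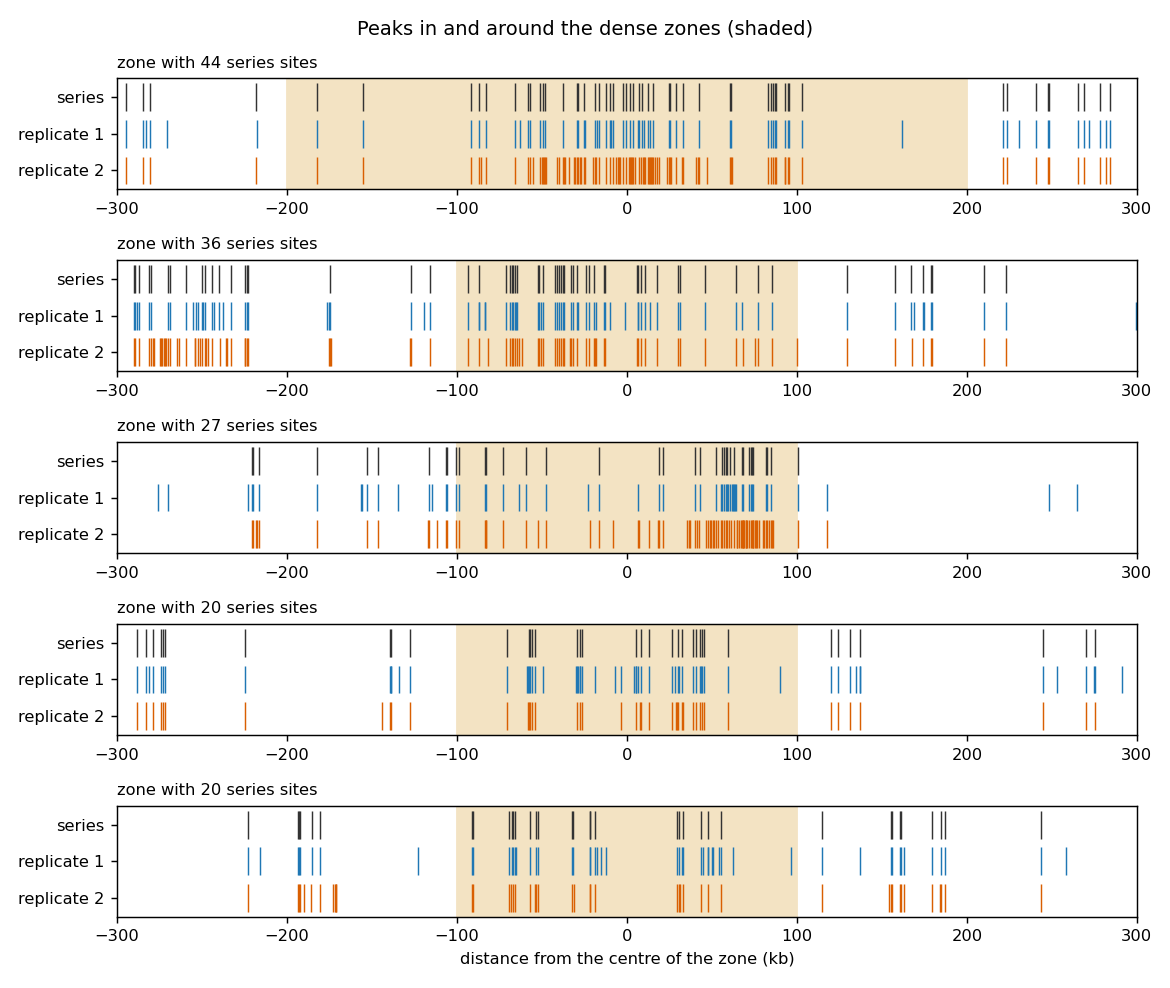
Each line is the centre of a peak, by distance in kb from the centre of each of the 5 dense zones (shaded), for the series list, replicate 1 and replicate 2. The densest 50 kb hold 16 of 44, 20 of 36, 18 of 27, 11 of 20 and 11 of 20 sites from the zone with most sites to those with fewest, and replicate 2 lines crowd this stretch in the zones with 44 and 27 sites.

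Sites in the dense windows were wider and scored lower than the other sites of the arm. Their median width was 295 bp (interquartile range 168.5 to 535), against 199 bp (139 to 315.5) for the 1131 sites in the other windows. Of the 24 sites of at least 1 kb, 16 lay in the 6 dense windows, or 66.7%. The replicate lists showed the same leaning, with 12 of 19 peaks of at least 1 kb in these windows in replicate 1 and 9 of 10 in replicate 2. The median score was 3.31 in the dense windows and 3.86 in the others. At the sites of the dense windows the median score was 3.44 in replicate 1 and 3.30 in replicate 2, against 3.84 in each replicate at the other sites. When each list was used to define its own dense windows, the difference in median score (dense minus other) was -0.55 for the sites, -0.30 for replicate 1 and -1.21 for replicate 2. Without the 3 windows that differ most between the replicates, at 19 to 19.2 and 25.4 to 25.8 Mb, it was -0.19 for the sites, so much of the difference came with these 3 windows. The interquartile ranges of the scores overlapped (2.64 to 4.10 in dense windows and 3.13 to 4.69 in others).

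Closely spaced sites formed chains, defined as at least 4 sites with each centre within 5 kb of the next. There were 60 chains with 303 sites, 23.6% of the span's sites. Sites in chains had a median width of 263 bp and a median score of 3.56, and the other 980 sites had 195 bp and 3.87. Within the replicate lists, which are denser, 43.1% and 40.6% of peaks were in chains. Of the sites outside such chains, 464 had no other site within 5 kb on either side.

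The longest chain lay in the zone at 19 to 19.2 Mb and ran over 22.2 kb, from 19151848 to 19174088, with 13 sites from MCM_4165 to MCM_4177. Its sites ranged from 90 to 2147 bp in width and from 1.73 to 7.78 in score, so strong and weak sites lay side by side. MCM_4167 (302 bp) scored 7.87 in replicate 1 and 7.70 in replicate 2, while MCM_4166 (118 bp), about 1 kb away, scored 1.48 and 2.01. The score was higher in replicate 2 at 10 of the 13 sites. Replicate 1 had 19 peaks in the chain's extent and replicate 2 had 25.

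The next chain in size had 9 sites in 13.6 kb, from 12057061 to 12070691, in the zone at 12 to 12.2 Mb. Its sites were broad and even, with a median width of 542 bp, none under 336 bp, and scores between 3.06 and 5.85. Here the score was higher in replicate 2 at only 1 of 9 sites, and the replicates had 9 and 10 peaks. A chain of 8 sites at 8836663 to 8849570, the shortest of 3 with that number, lay outside the dense zones and had a median score of 2.41.

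Between the clusters, 50 stretches of more than 100 kb held no series site. Together they made up 7.79 Mb, or 30.1% of the span. They were spread along the arm, with 15, 16 and 19 of them in the 3 segments from the centromere side. Replicate 1 had 107 peaks inside these stretches, or 13.7 per Mb, and replicate 2 had 29, or 3.72 per Mb. Series sites are the positions found in both replicates, so these stretches leave out peaks with a partner by definition. The low counts follow in part from that. Over the whole span, 765 replicate 1 peaks and 422 replicate 2 peaks had no partner. No replicate 1 peak lay in 12 of the 50, and no replicate 2 peak in 28. Counted on its own, replicate 1 had 35 stretches of more than 100 kb and replicate 2 had 43.

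The longest stretch without a series site was 259 kb, from 18619987 to 18879217. Replicate 1 had 3 peaks in it, with scores from 1.90 to 3.63, and replicate 2 had none. It began directly at MCM_4143 (18619782 to 18619986), the site with the third highest score of the span. That rank rested on replicate 1, where the score was 16.9, against 6.19 in replicate 2. The next stretch, 247 kb from 17919949 to 18166858, began at MCM_4118, which ranked 14th with a score of 9.18. Replicate 1 had 3 peaks in it and replicate 2 had 1.

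The third stretch, 244 kb from 23140899 to 23384653, had no replicate 1 peak and 1 replicate 2 peak, with a score of 14.9. It was also the longest empty stretch of the replicate 1 list taken alone. The stretch ranked 4th was 240 kb long, from 8545801 to 8786010, with 1 replicate 1 peak and no replicate 2 peak. The one ranked 5th, 239 kb from 2233071 to 2472467, held 7 replicate 1 peaks and 2 replicate 2 peaks. The stretches beginning at 23140899 and 8545801 were thus nearly empty in both lists, while that beginning at 2233071 was partly filled in replicate 1. The 6 sites at the edges of these stretches ranked between 418 and 1242 of 1283 by score.

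High scores at the edge were not a common feature of long stretches. The 100 sites at an edge of a stretch of more than 100 kb had a median score of 3.87 (interquartile range 3.13 to 4.77), against 3.79 (3.06 to 4.62) for the other 1183. They were narrower, with a median of 167 bp against 208 bp. How uniquely reads can be placed in these stretches was not measured.

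Neighbouring site centres were a median of 6990 bp apart, with quartiles at 2195 and 23023 bp. The replicate lists had medians of 4145 bp and 4116 bp, a mean of 4130.5 ± 20.5 bp (SD, n = 2). Distances of 1 kb or less made up 15.1% of the series list, 23.2% of replicate 1 and 24.5% of replicate 2. Distances between 20 and 50 kb made up 17.1%, 11.4% and 13.01%. The replicate lists thus had more distances of 1 kb or less, and fewer between 20 and 50 kb, than the series list. Another site lay within 10 kb of 1027 sites, or 80.0% (exact 95% binomial interval 77.8 to 82.2, counting error only). Over all chromosomes the share was 77.8%, so the arm lay near the background. In the replicate lists the shares were 88.4% and 86.1%.

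**Figure D3:**
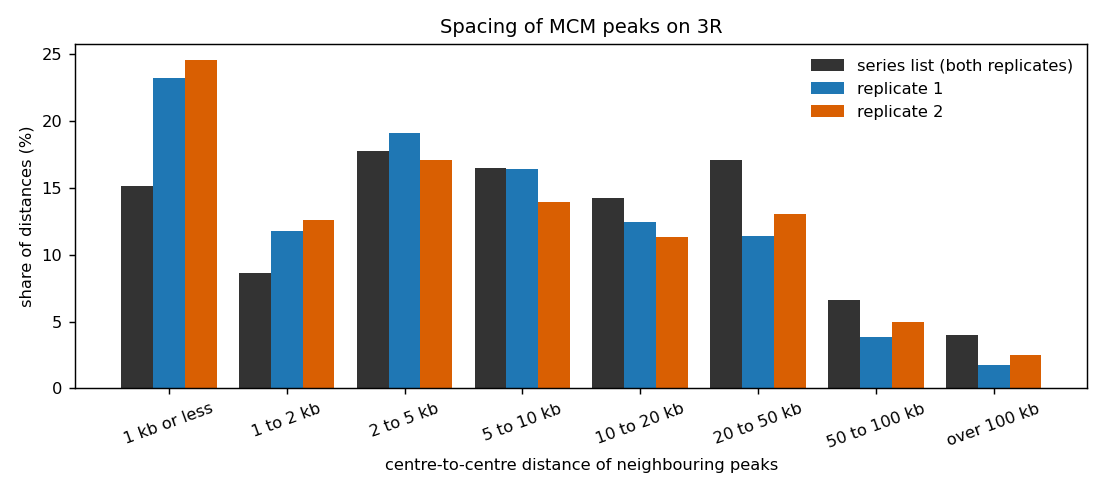
Share of centre-to-centre distances between neighbouring peaks (y axis, %) in 8 distance classes (x axis) for the series list and each replicate on the 3R span. The class of 1 kb or less holds 15.1% of series distances and over 23% of distances in each replicate, and the class over 100 kb holds 3.98%, 1.75% and 2.51%.

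Isolated sites were few. Only 19 sites had no other series site within 50 kb, and the most isolated was MCM_4384 (23911880 to 23912046, 167 bp, score 4.91), with its nearest neighbour 97935 bp away by centre. MCM_4001 (15980463 to 15980697, score 6.14) was 88193 bp from its nearest neighbour. From sites with a neighbour within 2 kb to those with none within 50 kb, the median score was 3.71, 3.84, 3.94 and 4.23 over 534, 493, 237 and 19 sites. Median widths over the same classes were 232, 191, 186 and 167 bp. The steps in score were small beside the quartiles within each class, which ran from 3.04 to 4.46 in the first class and from 3.25 to 5.05 in the last. With all peaks of a replicate classed by their own nearest peak, the medians were 3.44, 3.57, 3.85 and 4.17 in replicate 1. In replicate 2 they were 3.34, 3.91, 3.88 and 3.86.

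The sites were narrow, with a median width of 205 bp and quartiles at 142.5 and 330 bp. Site widths combine peaks of both replicates, and the replicate lists had medians of 138 and 100 bp. Peaks under 50 bp were 15.8% of replicate 1 and 24.9% of replicate 2 on the span, and the shortest in each was 1 bp, so the width of a called interval need not be the extent of bound DNA. The narrowest site was MCM_4147 (18917472 to 18917489, 18 bp), an 18 bp peak in replicate 1 and a 6 bp peak in replicate 2.

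The 5 widest sites were 1722 to 2491 bp long, and 4 of them lay in dense zones. MCM_4463 (25598348 to 25600838, 2491 bp) was a single peak in each replicate, of 2322 bp in replicate 1 and 2491 bp in replicate 2, and scored 2.50 and 2.33. It was the only one of the 5 whose 2 replicate widths were both above 2 kb. MCM_4170 (19159663 to 19161809, 2147 bp) was split into 2 peaks in each replicate. MCM_3880 (13525608 to 13527599, 1992 bp) was 1 peak of 1992 bp in replicate 1 and of 1681 bp in replicate 2, and had nearly equal scores of 4.81 and 4.79. MCM_4467 (25607693 to 25609670, 1978 bp) joined 1 replicate 1 peak of 1292 bp with 2 replicate 2 peaks. MCM_4007 (16134904 to 16136625, 1722 bp) was 3 peaks in replicate 1 and 1 of 1652 bp in replicate 2. Scores of the 24 sites of at least 1 kb lay between 1.67 and 4.80, with a median of 3.47.

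Scores, the authors' own value per peak, had a median of 3.79 in the series list, with quartiles at 3.07 and 4.63 and a range from 1.48 to 12.3. At the 1229 sites with 1 peak in each replicate, the site score was the mean of the replicate 1 and replicate 2 scores. Over all peaks of each list, the medians were 3.54 in replicate 1 and 3.58 in replicate 2. The range of site scores was thus compact, and 10 of the 1283 sites scored above 10.

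These 10 highest-scoring sites were all narrow, between 98 and 205 bp. They lay in the windows outside the dense ones, which held 88.2% of all sites on the span. The highest, MCM_3748 (11263882 to 11264012, 131 bp), scored 12.9 in replicate 1 and 11.7 in replicate 2. MCM_3655 (9297206 to 9297329, 124 bp) scored 12.01 and 12.6. MCM_3441 (4805701 to 4805813, 113 bp) scored 11.5 and 10.03, and MCM_3827 (12323201 to 12323313, 113 bp) scored 9.73 and 11.1. In these 4 both replicates gave a similar value. Their spacing varied, since MCM_3441 had a neighbour 375 bp away and MCM_3748 had its nearest at 29732 bp.

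In the other 6 the replicates differed more. MCM_4143 scored 16.9 and 6.19, MCM_3967 (15316842 to 15317002) 12.9 and 8.06, and MCM_4272 (21342700 to 21342797) 6.33 and 14.3. The first 2 were higher in replicate 1 and the last in replicate 2. MCM_4269 (21320867 to 21320985) scored 9.22 and 12.9, MCM_4496 (25947570 to 25947671) 9.03 and 12.9, and MCM_3384 (3807271 to 3807374) 8.48 and 11.8. All 3 were higher in replicate 2. Of the 10, 7 had replicate scores within 1.5 times each other, while only 78 of all 1283 sites, or 6.08%, differed by more than that. Of the 10, 5 had no other site within 10 kb, as had 256 of the 1283.

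**Figure D4:**
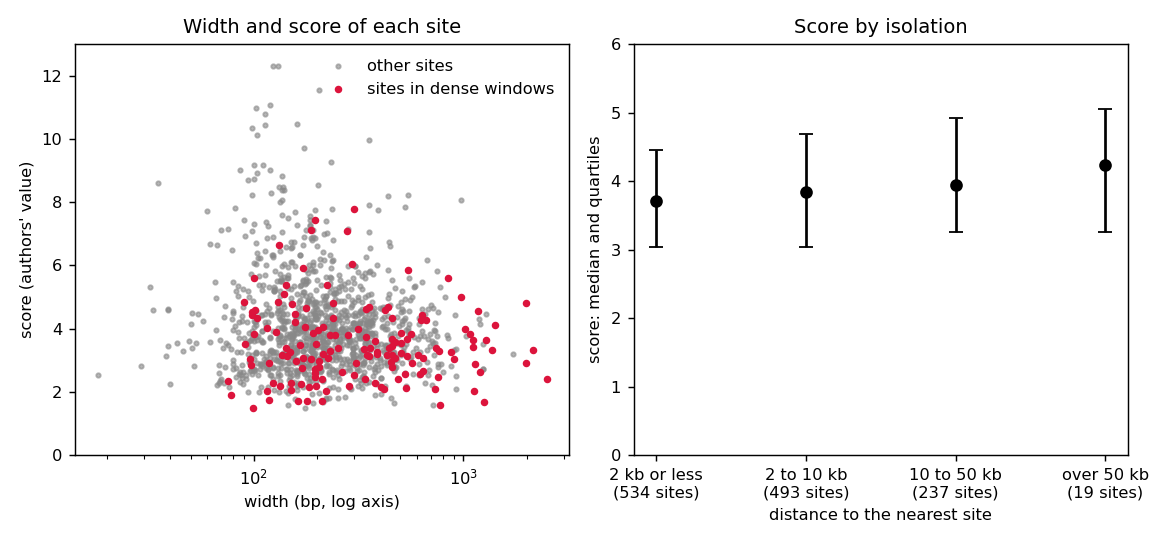
Left, score of each site (y axis, authors' value) against its width (x axis, bp, log axis), with sites in the 6 dense windows in red; right, median score with quartiles by distance to the nearest site. Sites above a score of 10 are between 98 and 205 bp wide and lie in the other windows, which hold 88.2% of all sites. The median rises from 3.71 to 4.23 with isolation while the quartiles overlap. From the class of 10 to 50 kb to that over 50 kb, it goes from 3.96 to 4.39 in replicate 1 scores and from 3.94 to 3.96 in replicate 2 scores.

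Most peaks of each replicate on the span overlapped a peak of the other replicate. Counting a shared base as overlap, 1297 of the 2062 replicate 1 peaks on the span met a replicate 2 peak, or 62.9% (exact 95% binomial interval 60.8 to 65.0), against 59.8% over all chromosomes. Of the replicate 2 peaks, 1331 of 1753 overlapped a replicate 1 peak, or 75.9% (73.9 to 77.9), against 70.3%. The intervals cover counting error only and treat peaks as independent, which neighbours are not. The whole-list shares include chromosome 4, heterochromatic and unplaced pieces, and the span is part of both counts. Leaving out the 3 windows at 19 to 19.2 and 25.4 to 25.8 Mb, 78.5% (76.4 to 80.5) of the replicate 2 peaks had a partner. Those windows, chosen for their replicate difference, held 154 of the 1753 replicate 2 peaks, or 8.78%, and 78 of the 422 without a partner, or 18.5%.

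Where both replicates had a peak, the scores were close. The centres of the paired peaks were a median of 22 bp apart (quartiles 9 and 45 bp), and 77.2% were at most 50 bp apart. Peaks were paired through overlap, which limits this distance in advance by their widths, so it is given as a description only. The replicate peaks shared a median of 58.3% of a site's bases, and replicate 1 covered more of the site in 79.7% of cases. The median log2 ratio of the replicate 2 score over the replicate 1 score was 0.03, with quartiles at -0.17 and 0.23, where the highest-scoring peak was taken if a site had several. Across the 1283 sites Spearman's rho between the replicate scores was 0.798 and Pearson's r was 0.785, given as a description, since all sites share their libraries.

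In 9 sites the replicate scores differed by more than 2 times, with replicate 2 higher in 7 of them. In several of these the replicate peaks had very different widths. MCM_3684 (9913807 to 9914781) was a replicate 1 peak of 975 bp scoring 5.19 and 2 replicate 2 peaks, the higher of which was 110 bp wide and scored 15.7. MCM_4275 (21452605 to 21452959) was 353 bp with 5.22 in replicate 1 and 41 bp with 14.7 in replicate 2. MCM_3873 (13445665 to 13445959) was 295 bp with 3.88 and 6 bp with 8.22. In these 3 the narrower peak had the higher score. The reverse held in MCM_4143, with 205 bp in replicate 1 and 55 bp in replicate 2, and in MCM_3543 (6710575 to 6710867), where 293 bp scored 4.47 and 1 bp scored 1.91.

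Peaks found in only 1 replicate were narrower and lower than the others, and most lay within 10 kb of a shared site. In replicate 1 the 765 unmatched peaks had a median width of 70 bp and a median score of 3.11, against 189 bp and 3.78 for matched ones. In replicate 2 the 422 unmatched peaks had 35.5 bp and 2.79, against 126 bp and 3.76. Their median distance to the nearest shared site was 3055 bp in replicate 1 and 1900 bp in replicate 2, and 78.4% and 87.9% of them lay within 10 kb of one. Among the shared sites themselves, 80.0% had another within 10 kb. From the narrowest to the widest quartile, the share with a partner was 20.2%, 53.8%, 84.5% and 93.2% in replicate 1. It was 40.3%, 76.3%, 92.0% and 95.2% in replicate 2. Width by itself raises the number of positions where peaks can touch, and its part in these shares was not tested.

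Some unmatched peaks scored high. The highest in replicate 2 was 67.2, at 8303135 to 8303162 (28 bp), which was 28053 bp from the nearest shared site by centre. It was followed by 24.4 at 3562559 to 3562718 (160 bp) and 19.6 at 21088245 to 21088266 (22 bp). In replicate 1 the highest were 15.3 at 7263432 to 7263454 (23 bp), 13.1 at 19348210 to 19348257 (48 bp) and 12.8 at 17415290 to 17415305 (16 bp). The second of these lay inside the site-free stretch that begins at 19200788. All but 1 of the 6 were under 50 bp wide. Of the peaks scoring above 10, 12 of 18 were unmatched in replicate 1 and 7 of 25 in replicate 2. Over all peaks of the span, 765 of 2062 and 422 of 1753 were unmatched, so replicate 2 lay near its overall share. In the highest quartile by score, 70.5% of replicate 1 and 84.5% of replicate 2 peaks had a partner, against 62.9% and 75.9% over all peaks.

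The profile of peak number along the arm was similar in both replicates. Over the 129 windows of 200 kb, which share their library and overall depth, Spearman's rho between the replicate counts was 0.907 and Pearson's r was 0.819. Replicate 1 had more peaks in 100 windows, replicate 2 in 17, and 12 had equal counts. Of the 17, 6 had an excess of more than 10 peaks in replicate 2. They comprised the windows at 19 to 19.2, 25.4 to 25.6 and 25.6 to 25.8 Mb already described. The others were 15.4 to 15.6 Mb with 40 against 27 peaks, 11.8 to 12 Mb with 41 against 29, and 16 to 16.2 Mb with 33 against 22. The window at 11.8 to 12 Mb adjoins the densest zone of the arm, where the replicates had 46 and 47 peaks, so the excess did not continue into that zone.

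**Figure D5:**
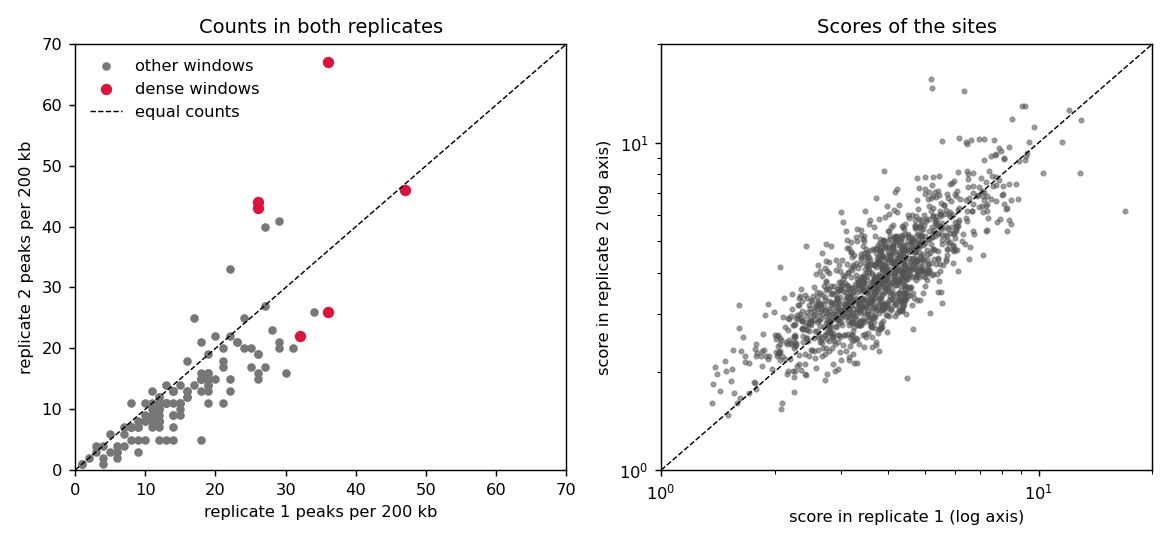
Left, replicate 2 against replicate 1 peaks in each of 129 windows of 200 kb, with dense windows in red; right, replicate 2 against replicate 1 score of each of the 1283 sites on log axes; dashed lines mark equal values. Most windows lie below the line of equal counts, while the windows with 67, 44 and 43 replicate 2 peaks lie well above it, and scores lie along the line.

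Against the other major arms, each taken without the 2 Mb nearest its centromere, 3R was intermediate. Its 49.5 sites per Mb compare with 45.7 on 2L, 46.7 on 3L, 48.8 on X and 55.1 on 2R. The ratio of 3R to the other 4 arms pooled was 1.01 for sites, and 0.974 and 0.988 for the peaks of replicates 1 and 2, so the sign of the small difference was not shared by the lists. The median width of 205 bp on 3R lay between 197 bp on 3L and 213 bp on X, and the median score of 3.79 between 3.72 on X and 3.90 on 2L. Its variance over mean of 200 kb counts was 3.10, against 2.89 on 2R, 3.64 on 3L, 4.13 on 2L and 4.73 on X. In replicate 1 it was 4.25, within the range from 3.93 on 2R to 5.89 on X. In replicate 2 it was 7.29, above 6.68 on X and below 10.3 on 3L, so the order of the arms was not shared by the lists. The longest site-free stretch was 259 kb on 3R and 332 to 371 kb on the other arms. In replicate 1 alone it was 244 kb, within the 198 to 268 kb of the other arms, and in replicate 2 alone 259 kb, against 307 to 369 kb. No window of 200 kb was empty on 3R, while the series list had 1 on 2R, 2 on 2L, 2 on 3L and 6 on X. In replicate 1, 2L and 2R had no empty window either. Site-free stretches of more than 200 kb numbered 11 on 3R, the longest span, and 3 to 10 on the other arms. They numbered 4 against 0 to 7 in replicate 1, and 8 against 2 to 6 in replicate 2. Site-free stretches of more than 100 kb made up 30.1% of 3R, within the 22.9% to 35.6% of the other arms. These are single values per arm and their differences were not tested.

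Replicate overlap on 3R was the highest of the 5 arms for replicate 1 peaks and lay between the others for replicate 2 peaks, and the differences were not tested. For replicate 1 peaks it was 59.5% on X, 60.5% on 2L, 60.8% on 3L, 61.0% on 2R and 62.9% on 3R. For replicate 2 peaks it was 65.4% (63.0 to 67.7) on X, 72.5% (70.2 to 74.8) on 3L, 75.9% (73.9 to 77.9) on 3R, 78.5% (76.3 to 80.7) on 2R and 81.6% (79.3 to 83.7) on 2L. The interval of 3R overlapped those of 3L and 2R, its neighbours in this order. Positions are given on FlyBase release 5.1, and gene content and sequence at the sites were not analysed here, since the gene annotation in hand is of another build.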

How the data were processed

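ChIP-seq peak lists of 2 MCM immunoprecipitations and the list of the whole series were used; the input sample has no list here. Per the file headers, positions are on FlyBase release 5.1, and the deposited caller column names PeakSeq. For its settings, the aligner and the control, nothing is stated in the sources used here. The deposited score per peak has no named unit, and comparing it between replicates assumes a common scale. Other positions are those of the deposited intervals, 1-based.

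From these, site centres (start and end averaged, rounded down), windows counted from position 0, centre-to-centre spacing, site-free stretches, chains and replicate overlaps (at least 1 bp) were computed. Windows count whole 200 kb units, so 5 sites beyond the last window are left out there. A site's neighbour outside the boundary was used only for its nearest distance. Shares carry exact (Clopper-Pearson) 95% intervals, which cover counting error only. Sequencing depth is unknown. No test was run: there is 1 group of 2 samples, and regions are not replicates.

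Named regions followed a rule: the 10 highest-scoring and 5 widest sites, 5 longest stretches, 5 densest windows, 3 longest chains, 3 highest unmatched peaks per replicate and 3 windows with the largest replicate difference. The edges of the boundary, the narrowest, lowest-scoring and most isolated sites, and sites differing by more than 2 times were named after their values were seen. The arm, lists and rules were chosen with earlier results of these data known. Alternatives varied the list, score filter, boundary, joining, windows, distances and overlap. Code was tested on simulated data. Tools were SciPy 1.17.1, pandas 2.3.3 and NumPy 2.4.6 under Python 3.11.15, with figures by matplotlib 3.10.9.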

Additional observations from a re-analysis of the deposited data

How the results depend on the processing

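Of 82 alternatives run over 15 results, 39 left the value near the main one by a set limit and 43 moved it. The limit was the spread between replicates or the interval of the value. For the highest window count it was 1.5 times the main value in either direction. Both density ratios crossed 1: that of 3R to the other arms, 1.01 for sites, was below 1 in each replicate, and that of the telomere-side to the centromere-side segment, 1.02, was 0.917 in replicate 1. Using 1 replicate list alone gave a density of 67.7 to 79.6 per Mb, 86.1% to 88.4% of peaks within 10 kb of another, a highest window count of 47 to 67, a variance over mean of 4.25 to 7.29, a longest stretch of 244 to 259 kb, a median spacing of 4116 to 4145 bp, a median width of 100 to 138 bp and a median score of 3.54 to 3.58. It also gave 40.6% to 43.1% of peaks in chains, a dense-window score difference of -1.21 to -0.30 and a ratio of 3R to the other arms of 0.974 to 0.988.

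The higher-scoring 50% of each list gave 24.8 sites per Mb, 57.9% within 10 kb, a highest count of 17, a longest stretch of 334 kb, a spacing of 21102 bp, a median score of 4.63, overlaps of 59.0% and 70.4% and 7.32% in chains. This follows in part from using fewer sites. Joining sites under 1 kb apart gave 40.0 per Mb, 69.2% within 10 kb, a highest count of 22, a spacing of 10796 bp, 8.21% in chains and an arm ratio of 1.00064. A boundary at 1 Mb or 3 Mb gave a spacing of 7084 or 6848 bp, and the 1 Mb boundary an arm ratio of 1.03. Limits of 5 and 20 kb gave 63.8% and 90.3% of sites near another, and chain limits of 2 and 10 kb gave 6.31% and 46.4%. With centres within 500 bp counted as shared, overlaps were 70.1% and 82.8%. Among 4 alternatives chosen after seeing the data, leaving out the 3 windows that differ most between replicates gave 78.5% for replicate 2, a variance over mean of 2.79 and a dense-window score difference of -0.19. The depth of the libraries is unknown and limits every count. No paired analysis was possible because 1 group has peak lists.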
